A study of Mus musculus with 12 samples.

Results

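Imprinted genes are genes of which mainly 1 parental copy is read, and 33 of them were followed through 12 single cultured cardiac progenitor cells (CPCs). The 33 genes, of 21729 in the table of read counts, form a list by textbook annotation, and the rule used no measured value. By that annotation 19 are read from the paternal copy and 13 from the maternal copy, and Gnas has isoforms of either kind. The counts carry no allele information, so the split below is by annotation and the parental copy in use was not measured. For 26 of the 33 genes imprinting is known from many tissues. For the other 7, which are Ube3a, Ppp1r9a, Ascl2, Trappc9, Copg2, Calcr and Gnas, it is known only from some, such as brain or placenta.

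An imprint is a methyl mark on DNA that is set in the egg or the sperm at a control region and copied at each later cell division. It silences 1 copy of a gene, directly or through a non-coding RNA, and most imprinted genes lie in clusters that share such a region. Many paternally read genes, such as Igf2, Mest and Peg3, promote growth of the fetus. Many maternally read genes, such as Cdkn1c, Igf2r and Grb10, hold growth back, and much of the network is switched down in organs after birth.

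The cells were c-Kit+ CPCs from hearts of FVB mice that the labels give as 12-week-old females. Hearts were digested, blood lineages were depleted and c-Kit+ cells were pulled out with magnetic beads. The cells were grown on gelatin in medium with serum, leukemia inhibitory factor, fibroblast growth factor and epidermal growth factor to passage 5, and the labels name no treatment or altered allele. Each library is 1 cell made with a full-length cDNA kit, and the labels tie no cell to an animal. The 12 cells therefore form 1 group and 1 sample, and no test was made. Each spread given below, as mean ± SD over the 12 cells, describes these cells only.

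Total counts ran from 3453708 to 5690184 per cell, and 10022 to 11950 genes had a count. Levels are given as CPM, the counts of a gene per 1000000 counts of its cell. A gene at 0 counts could lie at up to 3 counts, which is 0.527 CPM in the deepest cell and 0.869 CPM in the shallowest. Reads were not tagged by molecule, so this limit and all intervals given here take in counting error alone. Cell 10 stood apart. It had the highest value of each of 7 endothelial markers, with a sum of 9457 CPM against at most 58.3 CPM elsewhere. Its fibroblast marker sum was the lowest, at 188 CPM against at least 529 CPM elsewhere, but 175 CPM of this was Pdgfra, which was second highest in this cell, and the 3 collagen genes of the list were at or under 10.7 CPM there. Kit, the gene used for the sort, had 21 counts in cell 10 and none in the other 11 cells. Y-linked genes summed to 9.76 CPM in cell 3 and to 63.7 CPM or more in the others, which goes against a purely female source.

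Promoter sequences of 27 of the 33 genes were in the RefSeq table used here, on mouse GRCm38.p6. Each holds 250 bases before and 50 bases after an annotated start, written 5′ to 3′ on the strand of the gene, with CpG pairs in capitals because imprints are carried on CpG methylation. Ndn and Magel2 are shown first because they are intronless genes 26747 bases apart in 1 cluster, and Ndn had the highest level of all 33 while Magel2 had no count. Peg3 and Plagl1 are shown because both were low or uncounted in most cells and highest in cell 10. The Ndn window is chr7:62348027-62348326 on the plus strand with 11 CpG pairs, and the Magel2 window is chr7:62376729-62377028 on the plus strand with 10. The Peg3 window is chr7:6730370-6730669 on the minus strand with 13 CpG pairs. The Plagl1 window is chr10:13090582-13090881 on the plus strand with 26.
Ndn: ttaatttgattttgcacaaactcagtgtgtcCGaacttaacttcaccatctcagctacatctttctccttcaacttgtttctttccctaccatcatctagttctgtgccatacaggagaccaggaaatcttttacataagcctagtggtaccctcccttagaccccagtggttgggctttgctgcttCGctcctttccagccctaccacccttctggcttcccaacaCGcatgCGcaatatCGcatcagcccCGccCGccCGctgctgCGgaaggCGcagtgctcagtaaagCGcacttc
Magel2: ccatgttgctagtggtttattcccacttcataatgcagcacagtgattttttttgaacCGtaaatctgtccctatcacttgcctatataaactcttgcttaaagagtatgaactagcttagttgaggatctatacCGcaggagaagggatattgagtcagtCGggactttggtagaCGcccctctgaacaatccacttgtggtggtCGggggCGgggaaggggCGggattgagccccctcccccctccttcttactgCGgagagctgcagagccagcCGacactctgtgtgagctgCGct
Peg3: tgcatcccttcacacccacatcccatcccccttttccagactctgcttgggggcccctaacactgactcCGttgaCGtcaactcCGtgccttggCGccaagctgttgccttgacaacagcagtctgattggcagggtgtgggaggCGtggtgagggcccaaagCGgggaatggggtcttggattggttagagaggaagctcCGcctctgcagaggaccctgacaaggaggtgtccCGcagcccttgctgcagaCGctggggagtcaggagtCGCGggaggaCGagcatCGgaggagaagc
Plagl1: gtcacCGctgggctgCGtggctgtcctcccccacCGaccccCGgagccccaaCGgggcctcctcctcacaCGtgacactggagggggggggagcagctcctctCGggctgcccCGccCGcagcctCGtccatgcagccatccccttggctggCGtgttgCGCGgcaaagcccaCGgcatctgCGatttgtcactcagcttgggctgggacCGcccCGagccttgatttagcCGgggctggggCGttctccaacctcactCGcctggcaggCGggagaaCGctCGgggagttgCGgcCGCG

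Of the 33 genes, 12 were counted in every cell, 16 in some cells and 5 in none. The genes without a count were Cdkn1c, Zim1, Rtl1, Magel2 and Calcr. Over all 21729 genes, 35.3% were counted in every cell and 33.4% in none, against 36.4% and 15.2% of the imprinted genes. The share at 10 CPM or more in every cell was 18.2% for imprinted genes, against 21.5% over all genes. These 6 genes were Ndn, Sgce, Impact, Ube3a, Trappc9 and Copg2. Of the 19 paternally read genes, 6 were counted in every cell and 2 in none, and of the 13 maternally read genes 5 and 3. A cell had 15 to 22 of the 33 genes counted, with a median of 19, and 18.5 after thinning each cell to the total of the shallowest. The map of all 33 genes by cell shows a block of strong rows, led by Ndn, and a large block near 0.

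**Figure D1:**
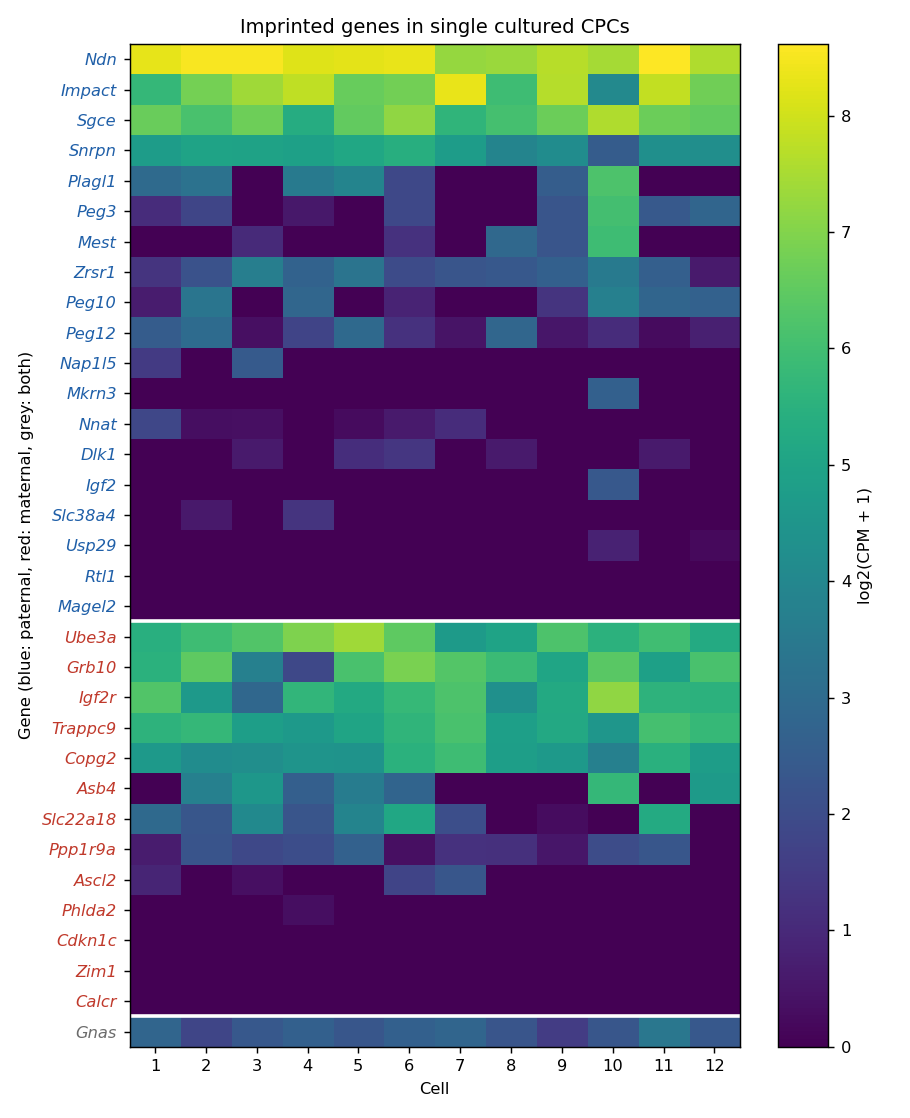
Level of each of the 33 imprinted genes in each of the 12 cells as log2(CPM + 1), with genes in rows grouped by the annotated parental copy and cells in columns. Ndn is strong in every cell, 5 genes have no count anywhere, and the column of cell 10 holds the highest values of Mest, Peg3 and Plagl1.

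The Prader-Willi/Angelman cluster on chromosome 7 held the gene with the highest level of the 33, also per kilobase. Gene positions here and below are those of GENCODE vM21 on GRCm38, the build also named mm10. Ndn (chr7:62346569-62350262) encodes necdin, a protein of the MAGE family that restrains cell division in neurons. Its level in cells 1 to 12 was 312, 368, 370.5, 291, 309, 323, 151, 159.8, 207, 173, 391 and 193 CPM. It was thus strong everywhere, lowest in cell 7 and highest in cell 11. Its mean was 271 ± 88.7 CPM.

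Snrpn (chr7:59982495-60140219), which encodes the spliceosomal protein SmN, had 26.1, 30.9, 30.3, 28.5, 34.0, 40.9, 26.4, 13.6, 17.4, 4.69, 18.8 and 17.9 CPM in cells 1 to 12. It was counted in every cell and clearly lowest in cell 10. Snurf, which shares a transcript with Snrpn and 216 bases of exon, was listed at 0 in every cell. On the same strand, Gm38393 shares 589 bases, which are 27.3% of the Snrpn exon bases. How the shared bases were counted is not given in the sources used here. Ube3a (chr7:59228750-59311536) encodes the ubiquitin ligase lost in Angelman syndrome and is imprinted mainly in neurons. It had 42.3, 60.2, 75.7, 123, 168, 88.2, 24.7, 30.9, 73.8, 45.2, 62.1 and 37.6 CPM, with the highest levels in cells 4 and 5. Of its exon bases 8.74% are overlapped on the other strand by Snhg14, and the strand rule of the counting is not given either.

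The other members of that cluster were near or at 0. Peg12, an intronless relative of the Frat genes that bind the kinase GSK3, was counted in every cell at 0.18 to 7.16 CPM. Mkrn3 (chr7:62417593-62420139), a makorin RING finger gene known for its part in the timing of puberty, had counts only in cell 10, where 28 counts (exact 95% Poisson interval 18.6 to 40.5) gave 5.26 CPM. Magel2 (chr7:62377010-62381640), a MAGE gene that works with ubiquitin ligases in protein sorting, had no count in any cell. Along this cluster, the intronless genes Ndn, Magel2, Mkrn3 and Peg12 thus ran from the top of the imprinted genes to 0.

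Impact, a paternally read gene that restrains the amino acid sensing kinase GCN2, came second to Ndn, also per kilobase of exon. In cells 1 to 12 it had 52.7, 111, 168, 222, 97.7, 109, 324, 59.8, 199, 15.8, 225 and 106 CPM. Cell 7 was highest and cell 10 lowest, and the mean was 141 ± 88.6 CPM.

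The Peg10-Sgce cluster on chromosome 6 mixed a strong and a weak gene on either side of 1 short gap. Sgce (chr6:4674350-4747207) encodes epsilon-sarcoglycan, a membrane protein linked to the dystrophin complex. Its levels in cells 1 to 12 were 100.2, 70.1, 103, 39.3, 91.9, 144, 48.9, 66.5, 101, 191, 102 and 91.6 CPM, so it was high throughout and highest in cell 10. Peg10 (chr6:4747306-4760517), a gene domesticated from a retrotransposon and needed in the placenta, starts 98 bases from Sgce on the other strand, was counted in 8 cells and reached at most 12.6 CPM. Asb4 (chr6:5383386-5433022), a maternally read substrate adaptor of a ubiquitin ligase, had 0, 12.6, 22.7, 5.03, 11.1, 5.84, 0, 0, 0, 52.8, 0 and 25.1 CPM. It was therefore present in 7 cells and without a count in 5. Ppp1r9a, which encodes the actin-binding protein neurabin, was counted in 11 cells at no more than 5.37 CPM, and the calcitonin receptor gene Calcr had no count.

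Plagl1, Peg3 and Mest were low outside cell 10. Plagl1 (chr10:13060504-13131694) encodes a zinc finger factor that slows the cell cycle and regulates other imprinted genes. It had 6.95, 8.39, 0, 10.8, 13.9, 2.66, 0, 0, 4.82, 73.6, 0 and 0 CPM in cells 1 to 12, so 5 cells had no count and cell 10 was 5.28-fold above the next cell. Peg3 (chr7:6703892-6730431), a zinc finger gene that shares a promoter region with Usp29 and is known for roles in growth and maternal behaviour, was counted in 8 cells. Cell 10 reached 64.8 CPM, and no other cell passed 5.98 CPM. Mest (chr6:30723547-30748465), which encodes an enzyme-like protein of the alpha/beta hydrolase fold, had counts in 5 cells. Its highest level was 60.1 CPM, again in cell 10, and the next was 6.54 CPM.

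The neighbours of these genes did not share one pattern. Usp29, a deubiquitinase gene whose promoter window shares 263 bases with that of Peg3, had 0.751 CPM in cell 10, 0.176 CPM in cell 12 and no count elsewhere. Zim1, a maternally read zinc finger gene beside Peg3, had no count. Copg2 (chr6:30747554-30896794), which encodes a subunit of the COPI vesicle coat, overlaps the 3′ end of Mest on the other strand over 912 exon bases. It had 23.7, 17.3, 17.9, 21.1, 20.5, 44.6, 60.5, 27.5, 24.3, 12.6, 43.1 and 26.7 CPM in cells 1 to 12. Copg2 was lowest in cell 10, where Mest was highest and where Snrpn, Impact and Trappc9 were also lowest.

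Of the imprinted genes that act on insulin-like growth factor (IGF) signals, the receptor Igf2r and the adaptor Grb10 were counted in every cell, while the ligand gene Igf2 was almost absent. Igf2 (chr7:142650766-142666816), the fetal growth factor, had counts in cell 10 only, where 22 counts (exact 95% Poisson interval 13.8 to 33.3) gave 4.13 CPM. Igf2r (chr17:12682406-12769664), the receptor that clears IGF2 into lysosomes, had 76.2, 24.4, 6.33, 50.3, 36.2, 53.7, 72.6, 19.1, 36.5, 145, 46.2 and 45.3 CPM in cells 1 to 12. It was counted in every cell, lowest in cell 3 and highest in cell 10. Grb10 (chr11:11930508-12038683), an adaptor that dampens insulin and IGF receptors, had 44.6, 87.9, 12.4, 2.64, 69.0, 118, 77.8, 58.0, 32.3, 84.3, 28.5 and 69.6 CPM. It was lowest in cell 4 and highest in cell 6.

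In the wider IGF pathway 6 of 8 genes (75%) were counted in every cell, against 35.3% of all genes. Igf1, the ligand of adult tissues, reached 213 CPM in cell 10 against a next highest level of 35 CPM, and it was counted in 7 cells in an on-off pattern. The ligands of both kinds were thus highest in the same cell. The signalling receptors Igf1r (13.2 to 104 CPM) and Insr (3.45 to 36.5 CPM) were counted in every cell. Igf2bp2, an RNA-binding protein named for its binding to Igf2 messages, averaged 73.1 ± 35.1 CPM.

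The maternally read genes at the distal end of chromosome 7 had few counts or none, with 1 exception. Cdkn1c (chr7:143458339-143461050), which encodes the cell cycle inhibitor p57, had no count in any cell. Phlda2, which limits placental growth, had 1 count in cell 4 (exact 95% Poisson interval 0.0253 to 5.57 counts). Ascl2, a transcription factor of the placenta and of intestinal stem cells, was counted in 4 cells at up to 3.99 CPM. The exception was Slc22a18 (chr7:143473736-143499334), a transporter-like gene between Cdkn1c and Phlda2, with 6.66, 3.95, 16.1, 3.83, 13.9, 34.0, 3.23, 0, 0.21, 0, 37.5 and 0 CPM in cells 1 to 12. It had no count in cells 8, 10 and 12 and strongest in cells 6 and 11.

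The remaining genes lie in smaller domains. Trappc9, which encodes a subunit of a vesicle tethering complex, was counted in every cell. Its levels were 46, 52.1, 27.4, 23.7, 31.8, 48.6, 70.0, 28.0, 35.6, 22.2, 65.7 and 53.4 CPM in cells 1 to 12. Zrsr1, an intronless splicing factor gene inside Commd1, was counted in every cell at 0.527 to 11.9 CPM, while its host averaged 28.3 ± 11.9 CPM. Gnas, which encodes the stimulatory G protein subunit, was also counted in every cell but only at 1.89 to 9.74 CPM, and the opposite-strand gene Gm20721 overlaps 13.1% of its exon bases.

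Dlk1, a membrane protein of the Notch ligand family that marks immature cells, was counted in 5 cells at up to 1.59 CPM, and Rtl1, a retrotransposon-derived gene of the same cluster, had no count. Nnat, a small membrane proteolipid gene inside Blcap, was counted in 6 cells at up to 2.61 CPM, while its host averaged 47.7 ± 27.2 CPM. Nap1l5, a nucleosome assembly protein-like gene inside Herc3, had 1.74 CPM in cell 1 and 4.48 CPM in cell 3. The amino acid transporter gene Slc38a4 had 0.494 CPM in cell 2 and 1.44 CPM in cell 4.

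Levels of different genes can be compared only per length, so CPM was also divided by the kilobases of exon of each gene. On this scale Ndn averaged 73.3 CPM per kilobase, Impact 27.5, Snrpn 11.2, Sgce 9.03 and Grb10 6.28. Ndn was above Impact in 11 of 12 cells and Impact above Snrpn in 11, so the top of the order held in nearly every cell. Further down, Sgce was above Grb10, Copg2 above Igf2r and Trappc9 above Ube3a in 9 cells each. Snrpn was above Sgce in 8 cells, Grb10 above Slc22a18 in 7, Slc22a18 above Copg2 in 4 and Igf2r above Trappc9 in 3, so that these neighbours changed places between cells. Copg2 averaged 5.53, Igf2r 5.48 and Trappc9 5.30 CPM per kilobase. With the length of the longest coding transcript in place of all exons, Ndn was still first and Sgce moved from rank 4 to rank 2, at 54.0 CPM per kilobase.

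**Figure D2:**
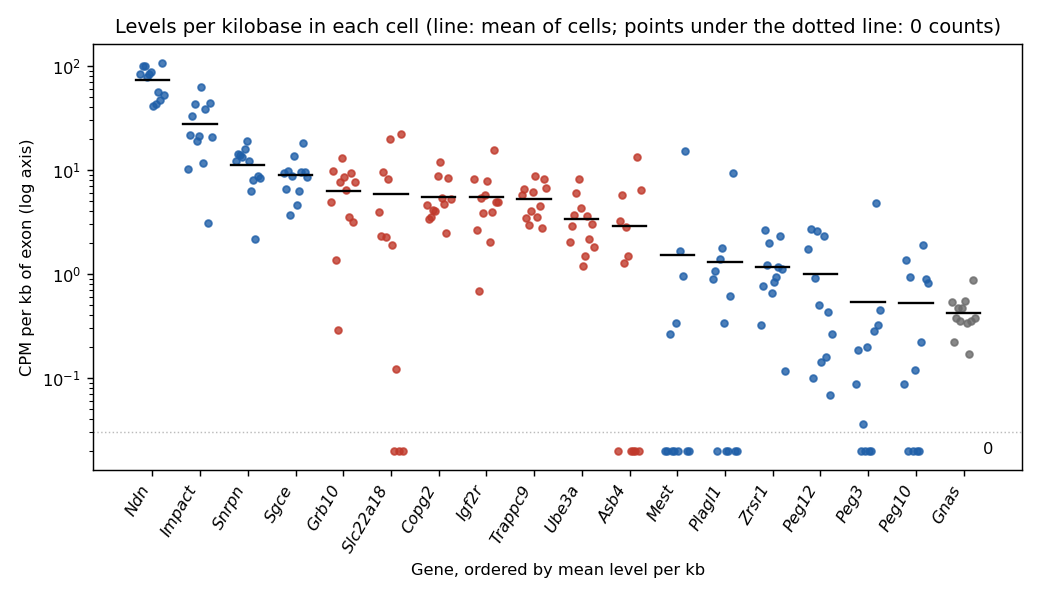
CPM per kilobase of exon, on a log axis, for the 18 imprinted genes with the highest mean. Points are single cells, lines are means over the 12 cells, and points below the dotted line are cells with 0 counts. Ndn has the highest mean and a narrow spread, though Impact in cell 7 lies above Ndn in several cells, while genes such as Plagl1, Peg3 and Mest spread from 0 to 1 high cell.

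Paternally read genes made up most of the summed imprinted level in every cell, but in 11 of the 12 only with Ndn and Impact included. Their sum was 317 to 753 CPM and that of the maternally read genes 165 to 396 CPM, with Gnas left out. The paternal share ran from 61.3% in cell 5 to 79.2% in cell 3, with a median of 66.9%. Much of it came from a pair of genes. Ndn and Impact together gave a median of 51.2% of the summed level of all 33 genes, at most 61.5% in cell 3 and at least 19.2% in cell 10. The paternal sum without them was 428 CPM in cell 10 and 80.6 to 199 CPM elsewhere. Without this pair the paternal sum was below the maternal sum in 11 of 12 cells, all but cell 10, and the median paternal share was 33.5%, with no maternal gene left out. With the most abundant gene of each class left out, the median paternal share was 57.8%. The share depends on transcript length and on which genes are listed, and it says nothing about which copy was read.

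**Figure D3:**
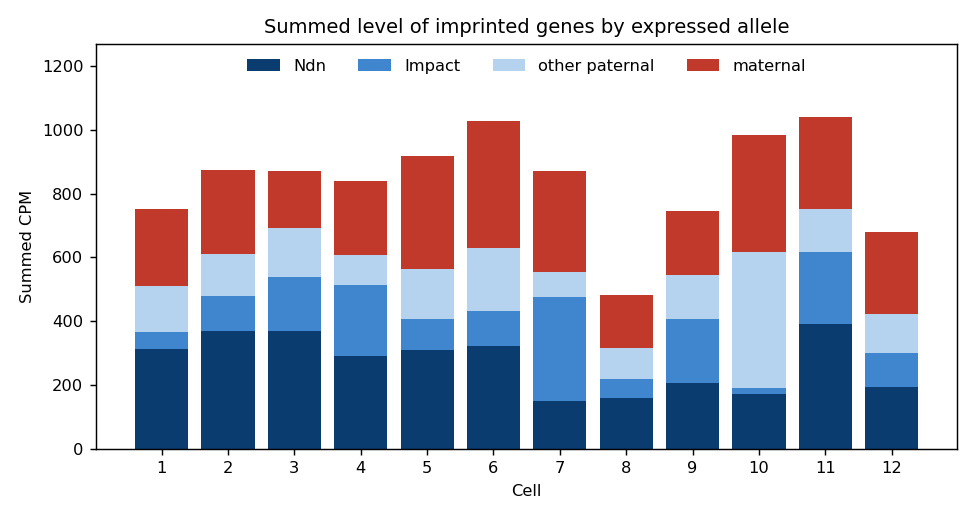
Summed CPM of the imprinted genes in each of the 12 cells as stacked bars from 0, divided into Ndn, Impact, the other paternally read genes and the maternally read genes, with Gnas left out. In cell 10 the segment of the other paternally read genes is the largest, at 428 CPM, and the Impact segment is nearly absent.

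Cell 10, the endothelial-marker cell, held many of the extreme values. Of the 26 imprinted genes counted in any other cell, it held the highest value of 8 (30.8%), against 10.9% of 14350 genes of that kind. These were Mest, Peg3, Plagl1, Igf2r, Usp29, Sgce, Peg10 and Asb4. Igf2 and Mkrn3, counted in cell 10 alone, are left out of this share because they could be highest nowhere else. It also held the lowest value of 4 of the 12 imprinted genes counted in every cell, namely Snrpn, Impact, Trappc9 and Copg2. That is 33.3%, against 16.7% over all genes counted in every cell. Relative to the median of the other 11 cells, Igf2r was 3.20-fold, Sgce 2.08-fold, Ndn 0.56-fold, Snrpn 0.18-fold and Impact 0.14-fold. These values come from 1 cell, and the part of its endothelial markers in them was not tested.

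**Figure D4:**
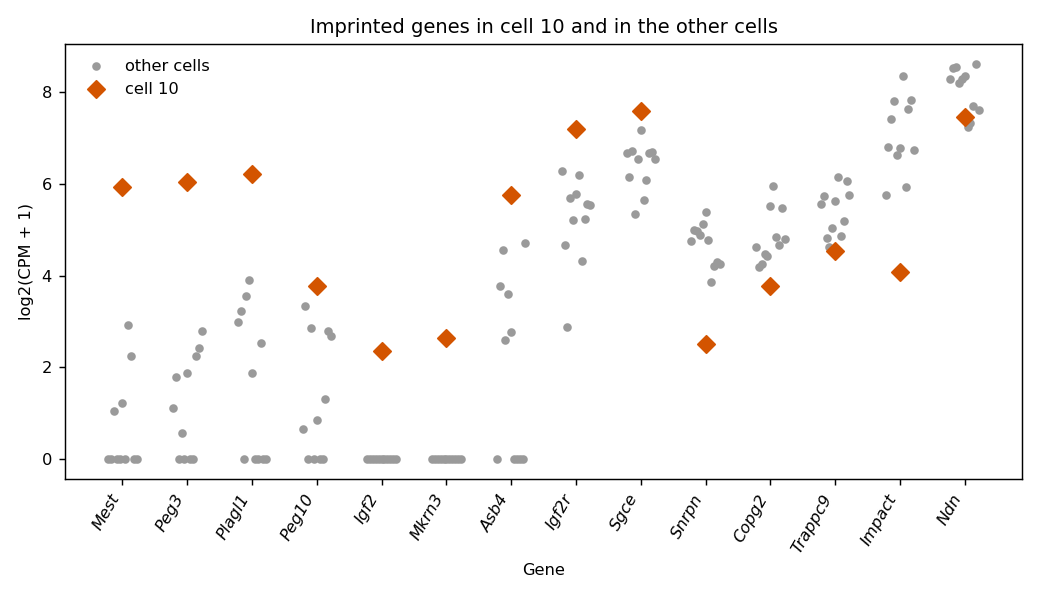
Levels as log2(CPM + 1) of imprinted genes in cell 10 (diamonds) and in the other 11 cells (grey points). Plagl1, Peg3 and Mest lie far above the other cells in cell 10, and Impact and Snrpn lie below them.

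Variation between cells was read against genes of the same abundance. For each gene with a mean of at least 5 CPM and counts in at least 3 cells, the residual was the squared coefficient of variation, on a log10 scale, minus the running median over 200 genes of similar mean. Of 15 imprinted genes past this limit, 9 (60%) lay above the trend, against 49.8% of 9701 genes, and their median residual was 0.20 against 0. The residual was 0.93 for Peg3, 0.93 for Mest and 0.76 for Plagl1, the genes carried by cell 10. It was 0.50 for Asb4, 0.41 for Impact and 0.38 for Slc22a18. At the steady end stood Snrpn and Zrsr1, both at -0.35, Trappc9 at -0.28 and Ndn at -0.11. Without cell 10, 6 of 11 genes lay above the trend and the median residual was 0.029. Mest, Peg3, Plagl1 and Zrsr1 then fell under the limit. Zrsr1, with a mean of 5.27 CPM, also fell under it without cell 3 or without cell 5.

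**Figure D5:**
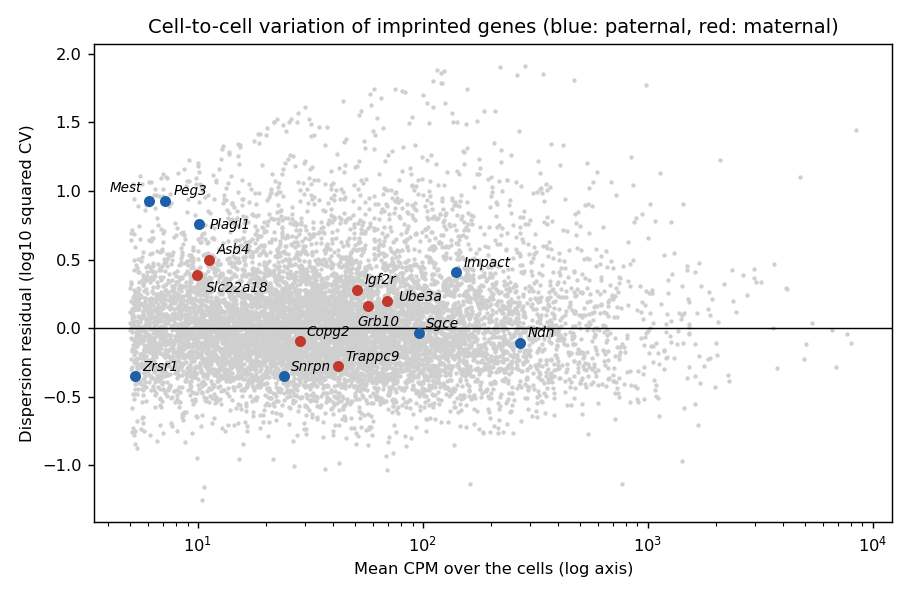
Residual dispersion of log10 squared coefficient of variation against mean CPM (log axis) over 12 cells, for 9701 genes (grey) and the 15 imprinted genes past the limit. Peg3, Mest and Plagl1 lie highest among the imprinted genes, at 0.93, 0.93 and 0.76, and Snrpn and Zrsr1 lowest, at -0.35.

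A gene was called on-off where at least 2 cells had 10 CPM or more and at least 2 cells had 3 counts or fewer. Of the 13 imprinted genes at 10 CPM in at least 2 cells, 3 (23.1%) were on-off, against 15.8% of 9753 genes. They were Plagl1, Asb4 and Slc22a18, whose values are given above. Their cells coincided in part. All 3 were above 10 CPM in cell 5 and without a count in cell 8. Plagl1 and Asb4 were also both without a count in cells 7 and 11, and Slc22a18 had its highest value in cell 11. In cells 3 and 12 Plagl1 had no count, while Asb4 had 22.7 and 25.1 CPM. Plagl1 and Asb4 were highest in cell 10, where Slc22a18 had no count.

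Imprinted genes did not rise and fall together as 1 block over the 12 cells. Over the 105 pairs of the 15 genes, the median Spearman rho was 0.087, against 0.021 over all pairs of genes past the same limit. It was 0.079 within the paternally read genes, 0.070 within the maternally read genes and 0.117 between the classes. The pairs with rho of at least 0.7 in size were Ndn with Slc22a18 (0.86) and Snrpn with Slc22a18 (0.71), and the share of such pairs, 1.90%, was next to 1.99% over all genes. The 3 pairs of the Prader-Willi/Angelman cluster had rho 0.55 for Ndn with Snrpn, 0.56 for Ndn with Ube3a and 0.59 for Snrpn with Ube3a. Sgce with Asb4 had rho 0.33 and Mest with Copg2 -0.12. Without cell 10 these were 0.12 and 0.19, and the 3 Prader-Willi/Angelman pairs were 0.47, 0.48 and 0.61 in the same order. Mest passed the limit of 5 CPM only with that cell. The cells share 1 culture and differ in depth, and rho with the number of genes counted per cell was 0.69 for Snrpn, 0.61 for Slc22a18, 0.57 for Ndn and 0.55 for Ube3a, whose part in these pairs was not tested.

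Over all their windows, the promoters of imprinted genes were close to those of other genes in CpG content. The 44 windows had a median of 13.5 CpG pairs, against 14 over the windows of all genes in the count table. For genes counted in every cell, the median was 14 for imprinted genes against 22 for all genes. For genes counted in fewer cells, it was 13.5 against 7. The core motif TGCCGC, bound by ZFP57 when methylated, was searched on both strands. It stood in 11 of 44 windows (25%), against 14.4% of the windows of genes in the table. The higher share lay only in genes counted in fewer cells, with 8 of 28 imprinted windows (28.6%) against 10.997%. Among genes counted in every cell it was 3 of 16 (18.75%) against 19.7%. The Mest windows that start at chr6:30737800 and chr6:30737803 overlap, and both hold the motif. The Plagl1 window printed above holds the motif, and the Ndn, Magel2 and Peg3 windows do not. The motif GCCATNTT of YY1 stood in 3 windows (6.82%) against 6.45%. Some windows of 1 gene overlap each other, and control regions of imprinting often lie outside these windows. Chromosome 18 was left out for the imprinted genes only.

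Of 17 genes that set, keep or remove DNA methylation or guard imprints, 10 (58.8%) were counted in every cell, against 35.3% of all genes, and 2 (11.8%) in none, against 33.4%. Dppa3 and Ctcfl, genes of germ cells and early embryos, were those without a count. Trim28, the corepressor that ZFP57 recruits to imprinted control regions, averaged 135 ± 60.9 CPM. Dnmt1, the methyltransferase that copies methylation at division, ran from 8.17 to 144 CPM, and Uhrf1, which guides it to newly copied DNA, from 0.264 to 203 CPM. Hells, a chromatin remodeler needed for DNA methylation, averaged 57.5 ± 75 CPM and was on-off, as was Dnmt3l (at most 24.3 CPM), a cofactor of new methylation in germ cells. Over the 15 genes with a count, rho with the summed level of 7 mitosis genes in the 12 cells ran from -0.27 for Tet2 to 0.87 for Smchd1, and it was 0.78 for Dnmt1, 0.71 for Ctcf and 0 for Zfp57.

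Of 27 further imprinted genes outside the 33, 10 (37.0%) were counted in every cell and 11 (40.7%) in none, both near the 35.3% and 33.4% of all genes. Those with a mean of at least 50 CPM were H13 (305 ± 135 CPM), a signal peptide peptidase, Pon2 (161 ± 65.2 CPM) and Pon3 (75.7 ± 47.3 CPM), which are paraoxonases, and Tfpi2 (64.9 ± 61.9 CPM), a protease inhibitor that was on-off. The genes with no count were Snurf, Dio3, Kcnq1, Th, Ins2, Zdbf2, Ddc, Klf14, Kcnk9, Slc22a2 and Slc22a3. Pon2, Pon3 and Tfpi2 lie in the same chromosome 6 cluster as Peg10 and Sgce. A set of 8 more imprinted genes, among them the non-coding RNAs H19, Meg3 and Airn, was not analysed here.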

How the data were processed

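Messenger RNA of 12 single cultured CPCs was read with the Smart-Seq v4 and Nextera XT kits. The authors aligned reads to mm10 with STAR 2.5.2b (submitters' processing notes), and deposited read counts for each gene in each cell, which were not normalized. The counter, annotation and strand rule are not given in the sources used here, so overlapping genes are uncertain.

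Counts were scaled to CPM per cell. Exon lengths and positions came from GENCODE vM21 on the build of mm10, with coordinates counted from 1, and 98.4% of gene symbols matched. Promoters came from the RefSeq table. The smallest chi-square per degree of freedom between any of the 66 pairs of cells was 42.3, so no pair was 1 library given in duplicate. Intervals are exact Poisson at a level of 0.95. The dispersion and correlation steps were tested on simulated data.

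Values in every cell are given for the 10 members highest per kilobase and for on-off members, and the others by range. From the lists of further imprinted, DNA methylation and imprint guarding, and IGF genes, those averaging 50 CPM or more, on-off or without a count are named. The rule also covered the marker and mitosis lists, which are given as sums only. Outside the rule, Igf1r, Insr, Commd1, Blcap, Herc3, Kit, Pdgfra, the collagens, Smchd1, Ctcf, Tet2 and Zfp57 were named after their values were seen. The members, lists and measures were chosen with earlier results of these data known. Alternatives covered thresholds, length scales, gene filters, depth and the removal of single cells. Doublets were not called. Computation used matplotlib 3.10.9, scipy 1.17.1, pandas 2.3.3 and numpy 2.4.6 under Python 3.11.15.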

Additional observations from a re-analysis of the deposited data

How the results depend on the processing

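Of the alternatives that changed a threshold, a scale, the genes summed or a pair of cells, 25 kept counts within 1.5 times the reported count, and other values within 1 SD over cells or pairs, and 7 did not. Within these limits, genes counted in every cell fell from 12 to 9 at 10 counts and the median rho rose from 0.087 to 0.15 without cells 3 and 10. Genes without a count rose from 5 to 10 when 10 counts were asked for, and on-off genes from 3 to 7 with a limit of 5 CPM. The median paternal share was 78.4% per kilobase, 80.8% over the genes imprinted in many tissues, 57.8% without the most abundant gene of each class and 33.5% without Ndn and Impact, an alternative chosen after seeing the data. Without cells 3 and 10, 5 of 11 genes lay above the dispersion trend, with a median residual of -0.083. With each cell left out in turn, 12 to 13 genes were counted in every cell, 5 to 7 in none (7 without cell 10) and 3 were on-off each time. The paternal share ran from 65.8 to 67.9%, genes above the trend from 6 (without cell 10) to 10, and the median rho from 0.036 to 0.092. No paired analysis was possible because the 12 cells form 1 group. Depth limits the genes under about 1 CPM, where a count of 0 and a low level cannot be told apart.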
